A study of Homo sapiens with 4 samples.

Results

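Histone genes were examined in AGS cells, a line from a human gastric adenocarcinoma, on 2 arrays of PRMT6-KO cells and 2 arrays of control cells with wild-type PRMT6. Per the labels' protocols, the knockout was made with 1 guide carried by lentivirus together with Cas9, followed by puromycin and by limiting dilution to clones. It is not given which clone each PRMT6-KO array holds, or whether the control cells carried a vector or were cloned, so clonal differences and loss of PRMT6 cannot be told apart here. The labels do not say whether the arrays of a group came from separate cultures, so p-values measure only the spread between these arrays, which may be technical. The members were taken by gene symbol and not by their values: protein-coding genes whose current symbols start with H1-, H2AC, H2BC, H3C, H4C, H2AZ, H2AX, H3-3 or MACROH2A, or which carry the older names with HIST1H, HIST2H, H2AF or H3F3. This gave 53 of 19775 measured genes, of which only H2AJ entered through its older name. Of these, 42 belong to replication-dependent families and 11 are replication-independent, namely H1-6, H1-7, H1-8, H1-10, H2AJ, H2AX, H2AZ1, H2AZ2, H3-3A, MACROH2A1 and MACROH2A2.

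Histones H2A, H2B, H3 and H4 form the protein core of the nucleosome, and H1 binds the linker DNA between nucleosomes. Replication-dependent histone genes lie in clusters without introns, are transcribed in S phase when new DNA is packaged, and give mRNAs that mostly end in a stem-loop instead of a poly(A) tail. Many replication-independent variants are made through the cell cycle from polyadenylated mRNAs, and variants of core histones replace these at particular places. PRMT6 adds methyl groups to arginine 2 in the tail of histone H3, and the series title sets the comparison in a study of that mark in gastric cancer. The comparison here asks which histone transcripts differ between the cells, not which histone marks. Labelling used a kit that amplifies RNA from its 3′ end, per the labels, and such kits start from poly(A) tails, so stem-loop histone mRNAs are read poorly. How much of each signal came from polyadenylated histone transcripts was not tested.

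The deposited values are log2 intensities normalized by RMA, and a difference is PRMT6-KO minus control on that scale. PRMT6 itself read 7.79 and 7.63 on the PRMT6-KO arrays, against 8.03 and 8.11 on the control arrays, a fall of 0.36 on the log2 scale (SE 0.09, limma adjusted p = 0.0429). This call was lost with each array left out (lowest adjusted p 0.103, highest 0.228), and the probe set is not known to lie in the edited part, so it does not check the knockout. Array medians of the 54613 probe sets ran from 5.01 to 5.02. The PRMT6-KO arrays correlated at 0.996 with each other (Pearson, across probe sets), the control arrays at 0.995, and arrays of different groups at 0.981 to 0.984. Of 9 markers listed for a gastric epithelial line, 8 lay above the median gene's intensity of 5.97, among them EPCAM and the keratins KRT8, KRT18 and KRT19, while CLDN18 lay below it. Of 13 leukocyte, endothelial and fibroblast markers 2 lay above it, LYZ and COL1A1. The 5 fibroblast markers summed to 27.0 to 27.2 on the PRMT6-KO arrays, against 23.8 to 24.8 on the control arrays, with COL1A1 and LUM called higher and COL1A2, DCN and PDGFRB dim and not called. The 5 leukocyte markers summed to 28.3 to 29.8 on the PRMT6-KO arrays, against 30.1 to 30.3 on the control arrays, with LYZ not called (adjusted p = 0.0957) and PTPRC, CD3E, CD79A and CD14 dim. The part of these shifts in the histone results was not tested.

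On the deposited scale, the histone genes that changed were higher in PRMT6-KO cells. At a limma adjusted p below 0.05 over all genes, 19 of the 53 rose, or 35.8%, against 12.4% of all genes called higher, and 0 fell, against 11.5% of all genes called lower. At an unadjusted p below 0.05 in limma, 28 members were higher and 1 lower, beside 3565 higher and 3325 lower of all 19775 genes. Both PRMT6-KO arrays lay above both control arrays for 33 members, against 29.1% of all genes, and both lay below for 2 members, against 29.1% of all genes again. The median difference was 0.24 over the 53 members and -0.01 over all genes. In RNA from bulk cells, a larger share of cells in S phase and more histone RNA per cell cannot be told apart.

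These counts rested on the arrays and on the scaling. Without control 1, 10 members rose, beside 6.96% of all genes, and without control 2, 12 rose, beside 5.37%. Without PRMT6-KO 1, 4 rose, beside 1.12% of all genes, and without PRMT6-KO 2, 4 rose, beside 0.814%. The 4 members called with any array left out were H2BC4, H2BC12L, H2BC9 and H2BC6, and they are the same genes that were called under all alternatives that tested them. Scaling the arrays to equal means of 10 reference genes moved the median of all genes to -0.26, and 1233 of the 19775 genes then rose (6.24%) and 7280 fell. Under it 10 members rose and 5 fell, namely H1-6, H1-7, H2AC15, H2BC1 and H3C11.

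**Figure D1:**
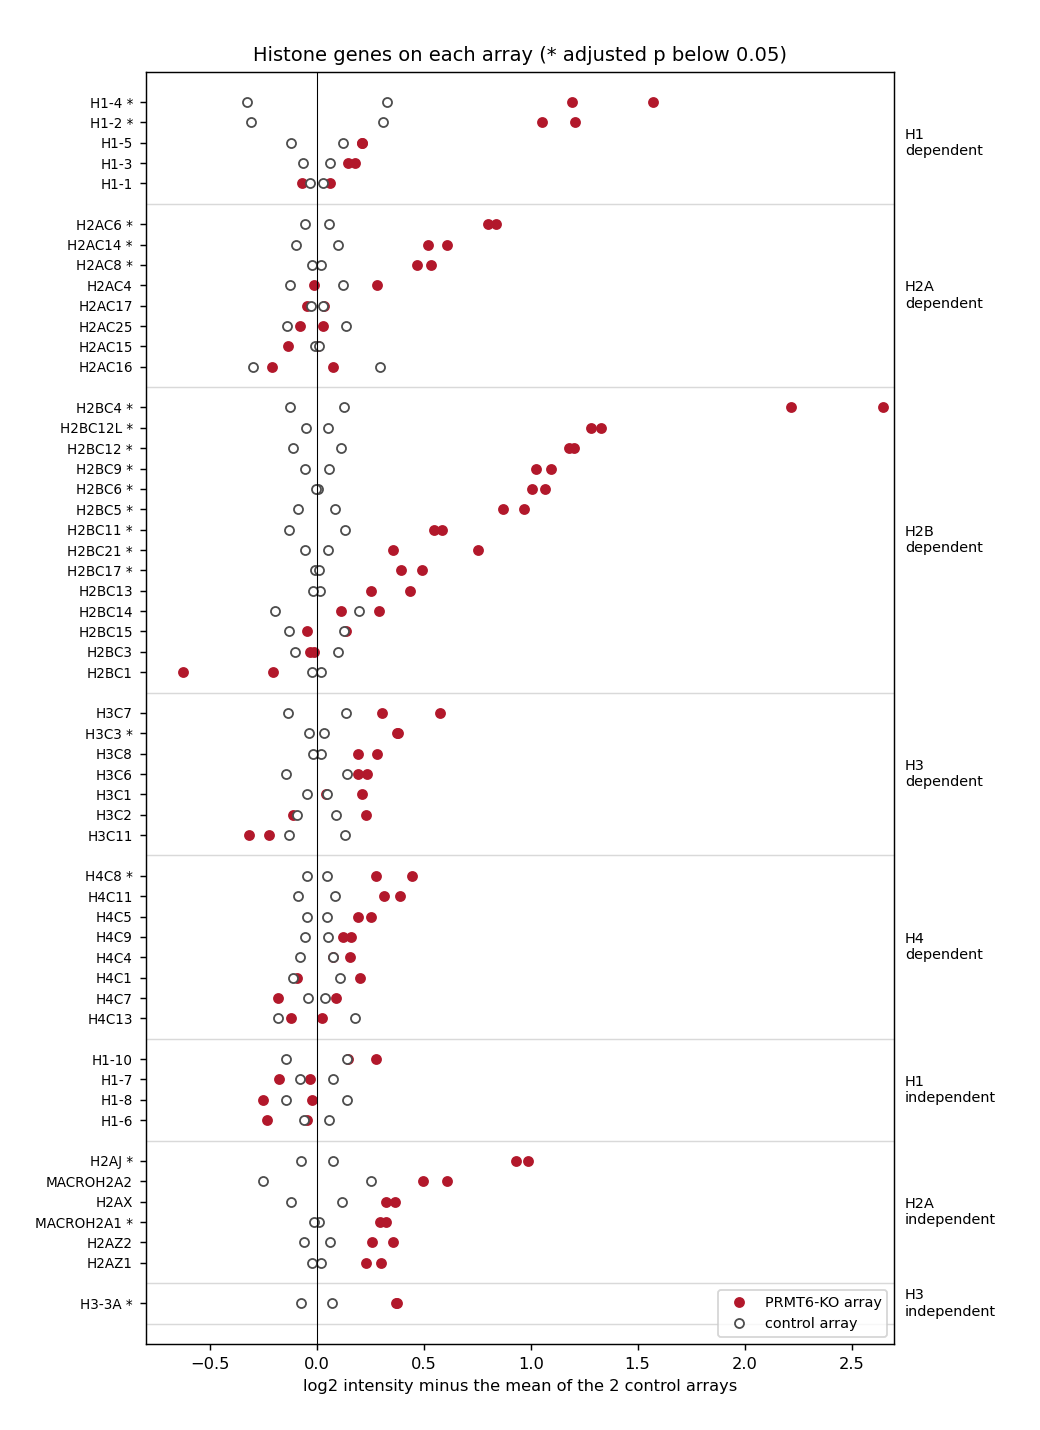
Log2 intensity of the 53 histone genes on each array minus the mean of the 2 control arrays, by class and family, with filled points for PRMT6-KO arrays, open points for control arrays and a star for an adjusted p below 0.05. The filled points of the 9 starred H2B genes, of H2BC13 and of H1-4, H1-2 and H2AJ lie right of both open points, while H2BC1 and H3C11 lie left of theirs.

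The replication-dependent class rose in 16 of its 42 genes (38.1%), and the replication-independent class in 3 of its 11 (27.3%), beside the same 12.4% of all genes. The median difference was 0.22 in the replication-dependent class and 0.31 in the replication-independent class, while reference gene scaling, which lowered all genes, turned the first to -0.032 and left the second at 0.057. Per array, the replication-dependent median relative to the control mean was 0.20 and 0.28 on the PRMT6-KO arrays, against 0.01 and -0.01 on the control arrays. The replication-independent median was 0.30 and 0.32 on the PRMT6-KO arrays, against -0.02 and 0.02 on the control arrays. Gene-specific here means only that a probe set's name lacks a suffix for shared sequence. Such names also occur on probe sets annotated to several histone genes. With gene-specific probe sets the medians were 0.15 over 32 replication-dependent genes and -0.031 over 8 replication-independent genes. H1-10, H2AX and H3-3A have none, and H2AJ, MACROH2A1, H2AZ1 and H2AZ2 were then read by dimmer probe sets. In the main fit the ranges overlapped, from -0.41 to 2.43 in the replication-dependent class and from -0.14 to 0.96 in the replication-independent class. The difference between the classes was not tested, because their genes share arrays and partly sequence. On chromosome 6 clusters were split at gaps over 500000 bases. In the cluster with H2BC4, which includes the replication-independent H1-6, 10 of 25 members rose, beside 12.4% of all genes. In the cluster with H2BC14 2 of 12 rose, near that share, and 2 of 3 in the one that holds H2BC11, H2BC12 and H4C9.

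Calls were more frequent among the brighter genes. Of the replication-dependent genes, 32 lay below the median gene's intensity and 10 at or above it. Of those 10, 9 rose, with a median difference of 0.98, and the other, H4C11, stood at 0.35 with an adjusted p of 0.0506. Of the 32 dim genes 7 rose, with a median of 0.14. Among all genes 21.6% rose at or above the median intensity and 3.29% below it. Of the 8 brighter replication-independent genes 3 rose, with a median of 0.33. The PRMT6-KO arrays lay above the control arrays for all 8, and for 4165 of all 9888 genes at or above the median intensity. The 3 dim ones, H1-6, H1-7 and H1-8, did not pass the test. Without detection calls it is not known which dim members exceeded background. Intensities of different probe sets are not amounts of transcript that can be set against each other.

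**Figure D2:**
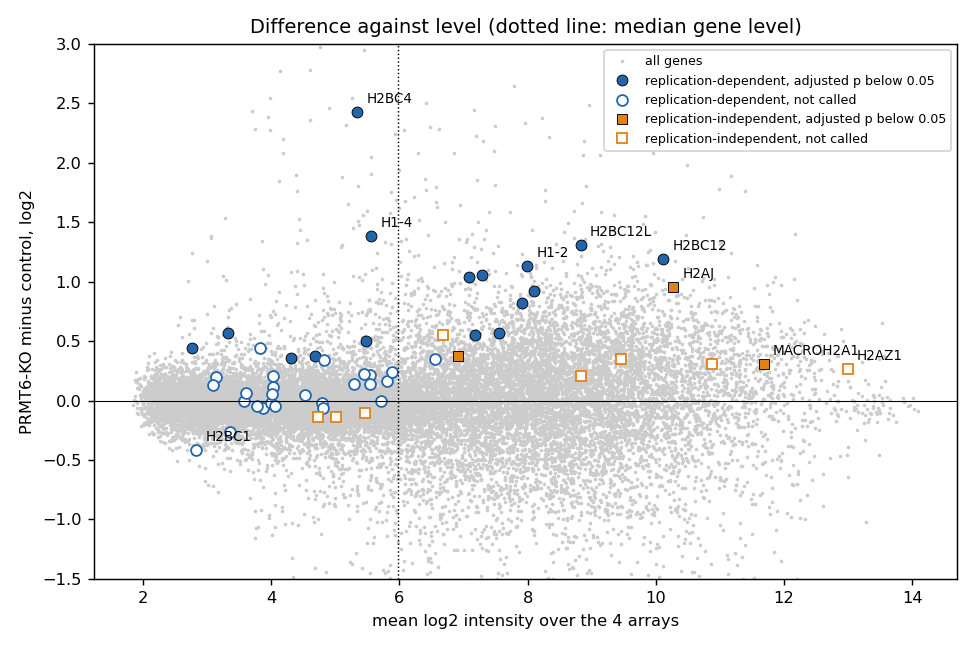
Difference between PRMT6-KO and control (log2, vertical axis, on which the most extreme genes lie outside the axis) against mean log2 intensity over the 4 arrays (horizontal axis), with all genes in grey, circles for replication-dependent and squares for replication-independent histones, filled at an adjusted p below 0.05. The replication-dependent genes right of the dotted line, the median gene at 5.97, lie between 0.35 and 1.30, and most of those left of it lie near 0.

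H2B genes, which encode the partner of H2A in the nucleosome core, made up 9 of the 16 replication-dependent genes that rose. Of 14 H2B genes measured those 9 passed the test (64.3%, beside 12.4% of all genes), with a median difference of 0.56. All 6 at or above the median gene's intensity rose, beside 21.6% of all such genes. Of the 8 below it 3 rose, beside 3.29%. H2BC4 had 6.77 and 6.35 on the PRMT6-KO arrays, against 4.26 and 4.003 on the control arrays. Its 2 groups were far apart, and it rose by 2.43 on the log2 scale (SE 0.17, 5.39-fold, limma adjusted p = 0.00125); its control level was below the median gene and is not known to exceed background, so the fold is approximate. H2BC12L, an H2B gene on chromosome 21 with a symbol that marks it as like H2BC12, had 9.46 and 9.51 in PRMT6-KO cells, against 8.12 and 8.23 in control cells, a rise of 1.30 (SE 0.08, 2.47-fold, adjusted p = 0.000988). H2BC12 had 10.72 and 10.70 in PRMT6-KO cells, against 9.41 and 9.63 in control cells, a rise of 1.19 (SE 0.10, 2.28-fold, adjusted p = 0.00213). For each of these genes both PRMT6-KO arrays lay well above both control arrays.

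H2BC9, H2BC6 and H2BC5 rose by about the same amount. H2BC9 had 7.85 and 7.79 in PRMT6-KO cells, against 6.82 and 6.71 in control cells, a rise of 1.06 (SE 0.08, adjusted p = 0.00176). H2BC6 had 7.57 and 7.63 in PRMT6-KO cells, against 6.57 and 6.56 in control cells, a rise of 1.04 (SE 0.08, adjusted p = 0.00146). H2BC5 had 8.51 and 8.61 in PRMT6-KO cells, against 7.56 and 7.73 in control cells, a rise of 0.92 (SE 0.10, adjusted p = 0.00335), and its other probe set rose by 1.30. H2BC12 and H2BC5 lost their calls without PRMT6-KO 1 and without PRMT6-KO 2 (highest adjusted p 0.0559 and 0.066). Smaller rises were called for H2BC11 (0.56), H2BC21 (0.56, adjusted p = 0.0487) and H2BC17 (0.44), of which H2BC21 and H2BC17 were called under no fit that left out an array and H2BC11 under 1. H2BC13 (0.34, adjusted p = 0.0522), H2BC14 (0.20), H2BC15 (0.05) and H2BC3 (-0.02) did not pass the test. H2BC1, a testis H2B, read 2.83 and 2.41 in PRMT6-KO cells, against 3.06 and 3.02 in control cells, and did not pass it either (-0.41, adjusted p = 0.116). The probe sets of H2BC5, H2BC6, H2BC9, H2BC12L and H2BC21 carry a suffix for sequence shared between transcripts, and H2B genes are near copies, so their values are partly the same measurement and a rise cannot be assigned to 1 copy. Over the whole replication-dependent class, 7 of 10 genes read by a probe set with such a suffix rose, beside 12.4% of all genes. Of 32 read by one without it, 9 rose. The 10 were also brighter, with a median control level of 6.83, against 4.13 for the 32. Of all genes 21.6% rose at or above the median intensity and 3.29% below it. A name without the suffix does not assure 1 copy, since such names also occur on probe sets annotated to 5, 10 or 14 histone genes.

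Promoters of 50 of the 53 members were found in the RefSeq table (build GRCh38.p14) and searched for short motifs over 250 bases before the start, on both strands and with each motif searched on its own. The octamer core TTTGCAT, part of the element known from H2B promoters, was found in 10 of 13 replication-dependent H2B promoters and 6 of 8 H2A promoters, in none of the H1, H3, H4 or replication-independent promoters of the list, and in 3.98% of all 27305 promoters. Within H2B it was present in 7 of 8 promoters of genes that rose and in 3 of 5 of those that were not called. Over all replication-dependent genes with a promoter it was in 10 of 15 that rose and in 6 of 24 that were not called, and since it was found only in H2A and H2B promoters of the class, these counts also follow the families. The box CCAAT was found in 13 of 13 of these H2B promoters and in 33.0% of all promoters, and the box TATAAA in 11 of 13 and in 11.1%. In 4 opposed H2A and H2B pairs the starts have 193 to 245 bases between them. A match in that stretch therefore counts for both genes of the pair in all these shares. Motif matches describe the letters only, and binding was not measured.

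H2BC4 and H2AC6 are neighbours read in opposite directions, with 245 bases between their starts, and both rose. The stretch between them is shown whole because it is the promoter region of both genes. It is given on the strand of H2BC4 (5′ to 3′), so it ends just before the H2BC4 start and begins just after that of H2AC6, with matches to any of the searched motifs on either strand in capitals (chr6:26123927-26124171, minus strand).
H2BC4 and H2AC6: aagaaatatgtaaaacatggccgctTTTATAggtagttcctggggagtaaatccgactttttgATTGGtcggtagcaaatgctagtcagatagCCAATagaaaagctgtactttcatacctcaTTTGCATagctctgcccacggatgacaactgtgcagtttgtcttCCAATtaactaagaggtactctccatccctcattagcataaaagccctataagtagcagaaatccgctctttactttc

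Sequence from the 120 bases before the start is shown for 3 H2B genes that rose, H2BC12, H2BC9 and H2BC5, and for 2 that were not called, H2BC3 and H2BC14, with the same capitals. The positions are chr6:27146859-27146978, minus strand for H2BC12, chr6:26251494-26251613, plus strand for H2BC9, chr6:26158001-26158120, plus strand for H2BC5, chr6:26043714-26043833, minus strand for H2BC3 and chr6:27814902-27815021, plus strand for H2BC14. The octamer core stands in capitals in H2BC12, H2BC9, H2BC3 and H2BC14 and is not in this stretch of H2BC5.
H2BC12: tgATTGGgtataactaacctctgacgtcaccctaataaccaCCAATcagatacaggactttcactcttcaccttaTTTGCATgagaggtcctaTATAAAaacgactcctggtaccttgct
H2BC9: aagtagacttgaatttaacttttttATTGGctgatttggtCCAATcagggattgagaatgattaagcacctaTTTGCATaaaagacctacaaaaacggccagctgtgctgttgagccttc
H2BC5: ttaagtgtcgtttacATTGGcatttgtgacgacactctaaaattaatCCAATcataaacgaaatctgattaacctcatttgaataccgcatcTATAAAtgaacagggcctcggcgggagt
H2BC3: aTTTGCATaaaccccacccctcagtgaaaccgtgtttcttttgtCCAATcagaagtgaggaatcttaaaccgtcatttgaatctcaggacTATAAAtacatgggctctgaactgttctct
H2BC14: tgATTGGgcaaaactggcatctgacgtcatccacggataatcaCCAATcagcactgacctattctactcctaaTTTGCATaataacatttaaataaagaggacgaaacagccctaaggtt

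Of 8 replication-dependent H2A genes 3 rose (37.5%, beside 12.4% of all genes). Of these, H2AC6 and H2AC14 were read only by probe sets with a suffix for shared sequence, so their rises cannot be assigned to 1 copy. H2AC6 had 8.30 and 8.34 in PRMT6-KO cells, against 7.56 and 7.45 in control cells, a rise of 0.82 (SE 0.08, 1.76-fold, limma adjusted p = 0.00306). H2AC14 had 7.88 and 7.79 in PRMT6-KO cells, against 7.17 and 7.37 in control cells, a rise of 0.57 (SE 0.10, adjusted p = 0.0143), and H2AC8 rose by 0.50 (adjusted p = 0.00987). The PRMT6-KO arrays lay clear of the control arrays for these genes and overlapped them for H2AC4, H2AC15, H2AC16, H2AC17 and H2AC25, whose differences ran from -0.07 to 0.14. H2AC14 lost its call under reference gene scaling, without control 1 and without either PRMT6-KO array (highest adjusted p 0.128), H2AC6 without either PRMT6-KO array (highest 0.0628), and H2AC8 whichever array was left out. Among 4 opposed H2A and H2B pairs of members with starts at most 500 bases apart, both genes rose only in H2AC6 and H2BC4. H2AC14 (0.57) rose beside H2BC14 (0.20), H2BC17 (0.44) rose beside H2AC17 (-0.01), and neither gene of H2AC15 (-0.06) and H2BC15 (0.05) passed the test. Members of a pair were thus not always called together, and whether partners differ from each other was not tested. The shared suffix of H2AC6 and H2AC14 limits these pairs too.

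Linker histones H1-1 to H1-5 compact chromatin between nucleosomes. H1-4 had 6.44 and 6.06 in PRMT6-KO cells, against 5.20 and 4.54 in control cells, a rise of 1.38 (SE 0.25, 2.61-fold, limma adjusted p = 0.0146). H1-2 had 8.49 and 8.64 in PRMT6-KO cells, against 7.74 and 7.12 in control cells, a rise of 1.13 (SE 0.21, 2.19-fold, adjusted p = 0.0167). The control arrays of both genes differed by over 0.6, with control 1 the higher, and the groups still did not overlap. H1-4 lost its call without control 2 and without either PRMT6-KO array (highest adjusted p 0.138), and H1-2 without either PRMT6-KO array (highest 0.162). H1-5 (0.21), H1-3 (0.16) and H1-1 (-0.00) did not pass the test. All 5 of these H1 promoters held the box AAACACA, known from H1 genes, which was in 4.95% of all promoters; it was thus present whether or not the gene was called. The 150 bases before the starts of both genes that rose are shown to compare them, again with matches to the searched motifs in capitals (H1-4 at chr6:26156179-26156328, plus strand, H1-2 at chr6:26056471-26056620, minus strand).
H1-4: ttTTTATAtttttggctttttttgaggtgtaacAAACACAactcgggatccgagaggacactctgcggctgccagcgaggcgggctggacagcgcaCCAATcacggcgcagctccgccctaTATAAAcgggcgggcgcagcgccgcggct
H1-2: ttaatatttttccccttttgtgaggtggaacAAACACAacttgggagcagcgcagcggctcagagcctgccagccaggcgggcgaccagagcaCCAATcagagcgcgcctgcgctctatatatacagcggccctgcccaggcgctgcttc

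H3 and H4 proteins form the central tetramer of the nucleosome, and H3 carries the arginine that PRMT6 methylates. Their replication-dependent genes rose in shares of 14.3% for H3 and 12.5% for H4, beside 12.4% of all genes. All of them but H4C11 lay below the median gene's intensity, where 3.29% of all genes rose. Of 7 replication-dependent H3 genes 1 rose, H3C3, which had 4.87 and 4.87 in PRMT6-KO cells, against 4.46 and 4.53 in control cells (0.38, SE 0.08, limma adjusted p = 0.0229). Of 8 H4 genes 1 rose, H4C8, which had 4.58 and 4.41 in PRMT6-KO cells, against 4.18 and 4.09 in control cells (0.36, SE 0.09, adjusted p = 0.0475). Both were dim, and both lost their calls whichever array was left out. The family medians were 0.21 for H3 and 0.13 for H4, and the other members ran from -0.27 (H3C11) to 0.44 (H3C7, adjusted p = 0.0805).

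Many histone copies are too alike for a probe set of their own, and 20 probe sets were annotated to several histone genes each, naming 40 histone symbols of which 21 are members. These are outside the 53 members and were tested over all 54613 probe sets, of which 6.68% were called higher. Of the 20, 10 rose and 0 fell, with a median difference of 0.47. Of the 3 H2B probe sets annotated to H2BC4, H2BC6, H2BC7, H2BC8 and H2BC10, the one that moved most read 6.75 and 6.68 in PRMT6-KO cells, against 3.74 and 3.87 in control cells, a rise of 2.91 (95% confidence interval 2.66 to 3.16, limma adjusted p = 0.00101), and the other 2 rose by 1.01 and 0.98. The control level of the first is below the median gene and not known to exceed background, so its difference is approximate and the interval covers only the spread between arrays. An H3 probe set annotated to 10 genes read 5.77 and 6.004 in PRMT6-KO cells, against 4.75 and 4.80 in control cells, a rise of 1.11 (adjusted p = 0.00731). An H4 probe set annotated to 14 genes read 12.37 and 12.43 in PRMT6-KO cells, against 11.92 and 11.83 in control cells, a rise of 0.53 (adjusted p = 0.0257). For each of these the groups did not overlap. The other H3 probe set, annotated to the same 10 genes, read 3.44 and 3.35 in PRMT6-KO cells, against 3.84 and 3.64 in control cells (-0.35, adjusted p = 0.117), dim values that did not pass the test. The other H4 probe sets annotated to the same 14 genes stood at 0.48, 0.32, 0.32 and -0.20, and none of them was called. A rise on a shared probe set names no single copy.

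**Figure D3:**
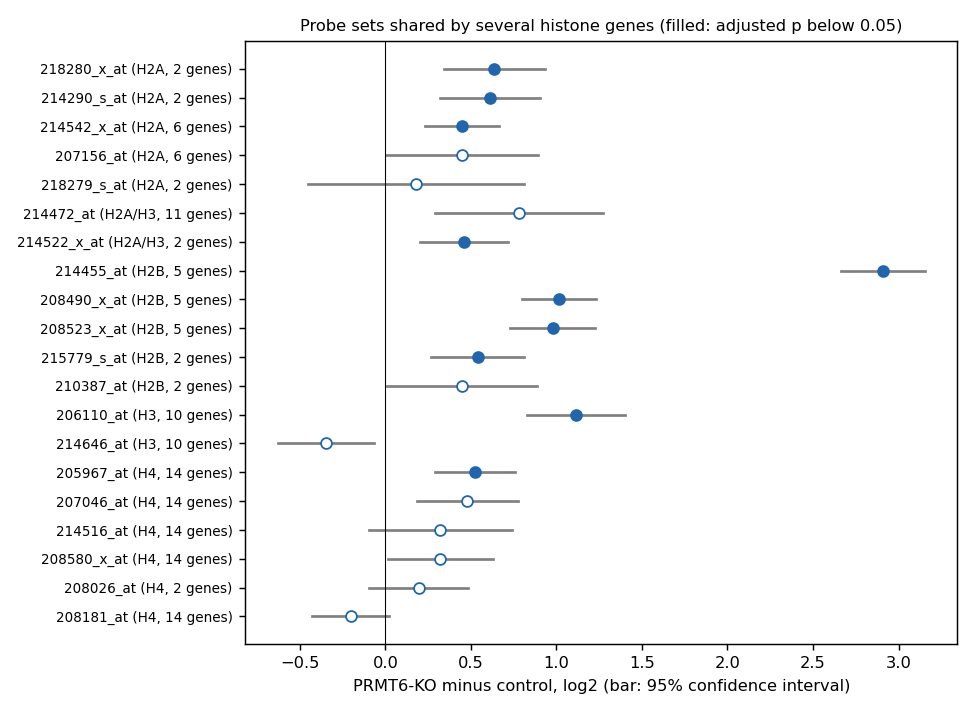
Difference between PRMT6-KO and control (log2, horizontal axis) with its 95% confidence interval for the 20 probe sets annotated to several histone genes, grouped by family and filled at an adjusted p below 0.05 over all probe sets. The topmost H2B probe set lies at 2.91 and 1 H3 probe set at 1.11, while the other H3 probe set (-0.35) and 1 H4 probe set (-0.20) lie left of 0.

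The replication-independent variants that rose were H2AJ, MACROH2A1 and H3-3A. H2AJ, an H2A variant outside the large clusters, had 10.78 and 10.72 in PRMT6-KO cells, against 9.87 and 9.72 in control cells, a rise of 0.96 (SE 0.09, 1.94-fold, limma adjusted p = 0.00251). That value rested on its bright probe sets with a suffix for shared sequence, which rose by 0.96 and 0.92. Its gene-specific probe set read 4.86 and 4.80 in PRMT6-KO cells, against 4.78 and 4.90 in control cells, and its other dim probe set stood at -0.14 on the log2 scale. H2AJ also lost its call without either PRMT6-KO array (highest adjusted p 0.057). MACROH2A1, an H2A variant with a large extra domain, had 11.83 and 11.85 in PRMT6-KO cells, against 11.54 and 11.52 in control cells, a rise of 0.31 (SE 0.07, adjusted p = 0.0379). Its 7 probe sets ran from -0.05 to 0.32. MACROH2A1 was not called with its gene-specific probe set, with the mean of its probe sets or under reference gene scaling. It was also not called with a replicate block or in any fit that left out an array. H3-3A, which encodes the replacement H3 laid down outside replication, had 7.10 and 7.10 in PRMT6-KO cells, against 6.65 and 6.80 in control cells, a rise of 0.37 (SE 0.09, limma adjusted p = 0.0333). H3-3A was not called under reference gene scaling, after quantile normalization again, with a replicate block or in any fit that left out an array.

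The other H2A variants did not pass the test on their brightest probe sets, although both PRMT6-KO arrays lay above both control arrays for each. The same held for 4165 of all 9888 genes at or above the median intensity, where these variants lie. H2AZ1, one of the genes for the H2A.Z variant found at promoters, had 13.16 and 13.09 in PRMT6-KO cells, against 12.84 and 12.88 in control cells (0.26, adjusted p = 0.0674 in limma). H2AZ2, the second H2A.Z gene, had 10.98 and 11.07 in PRMT6-KO cells, against 10.78 and 10.66 in control cells (0.31, adjusted p = 0.0624). Of the 4 probe sets of H2AZ2, 2 were called higher when tested over all probe sets, at 0.86 and 0.80. The probe sets of this gene thus disagreed in size. With gene-specific probe sets H2AZ2 (0.80, adjusted p = 0.00489) and H2AZ1 (0.35, adjusted p = 0.0375) were called, and so were both with the mean of their probe sets (adjusted p = 0.00562 and 0.032), while reference gene scaling left them at 0.057 and 0.015. H2AX, the variant phosphorylated at DNA breaks, stood at 0.35 (adjusted p = 0.0734) and MACROH2A2 at 0.55 (adjusted p = 0.0829), with control arrays at 6.16 and 6.66. MACROH2A2 stood at 0.30 without control 1 and at 0.80 without control 2, where it was called (adjusted p = 0.0339). Among H1 variants, H1-10 stood at 0.21 (adjusted p = 0.301), and the germ-cell genes H1-6, H1-7 and H1-8 stood at -0.14, -0.10 and -0.14. With only the brighter genes tested, 7 of 8 replication-independent genes were called higher, beside 30.3% of all genes tested (21.6% of them in the main fit). With an intensity trend in the variance 7 of 11 were, beside 15.7% of all genes (12.4% in the main fit). H2AX, H2AZ1, H2AZ2 and MACROH2A2 were added to the calls under both alternatives.

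Genes that work with histones were listed to set the members beside their supply line. In the S phase list, 25 of 29 measured genes rose and 1 fell, CDC6 (-0.35), with a median of 0.68, beside -0.01 for all genes. All 29 lie above the median gene's intensity, where 21.6% of genes rose, and 12.4% of all genes did. The replication regulator E2F8 rose by 1.22, UHRF1, which maintains DNA methylation, by 1.19, the replisome gene GINS2 by 1.14, the helicase subunits MCM4 and MCM2 by 1.06 and 0.94, and the fork protection gene TIPIN by 1.05. S phase transcripts therefore moved with the histone genes, and their part in the histone result was not tested. Under reference gene scaling 21 of the 29 S phase genes rose, beside 6.24% of all genes. Without PRMT6-KO 1, 2 of these genes were called higher, and without PRMT6-KO 2, 1 was.

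Of 27 histone chaperones and assembly factors 12 rose and 2 fell, with a median of 0.30, beside 12.4% of all genes and 21.6% of those at or above the median intensity called higher. ASF1B, which hands H3 and H4 to replicating chromatin, rose by 0.74, and CHAF1A, the large subunit of the chromatin assembly factor, by 0.56. IPO4, an importin for H3 and H4, rose by 0.63, SSRP1, a subunit of the FACT complex, by 0.61, and TONSL, which binds newly made H4, by 0.64. SPTY2D1 fell by 0.69 and NAP1L1 by 0.30. Of 21 genes of histone mRNA 3′ end formation and turnover 8 rose and 3 fell, with a median of 0.26, beside the same shares. SSB, the La RNA-binding protein, rose by 0.68, SRRT, which binds the cap complex, by 0.55, and the cleavage factor CSTF2 by 0.52, and the stem-loop binding protein gene SLBP, which is also in the S phase list, by 0.30 (limma adjusted p = 0.045). In contrast, ZNF473 and LSM11, which belong to or bind the U7 particle that cuts histone mRNA, fell by 0.74 and 0.53, and MIF4GD, a partner of SLBP, fell by 0.57. NPAT, the coactivator of replication-dependent histone genes, stood at 0.24 (adjusted p = 0.0947).

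Of 15 genes of the complexes that exchange H2A.Z into chromatin 4 rose (26.7%) and 1 fell, with a median of 0.15, a share near the 21.6% of genes at or above the median intensity, where all 15 lie. The ATPases RUVBL2 and RUVBL1 rose by 0.41 and 0.40, SRCAP by 0.38 and ING3 by 0.34, and EP400 fell by 0.51. Of 4 measured histone genes outside the symbol rule, CENPA, the centromeric H3, had 8.52 and 8.66 in PRMT6-KO cells, against 8.07 and 8.01 in control cells, a rise of 0.55 (limma adjusted p = 0.0104), while H3-4, H2BW2 and H2AP stood between -0.10 and -0.08. Under reference gene scaling rises in the chaperone, 3′ end and H2A.Z lists fell to 4 of 27, 2 of 21 and 0 of 15 genes. Beside them 6.24% of all genes rose there, against 12.4% in the main fit. Calls in these lists and over all genes were also fewer with any array left out.

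**Figure D4:**
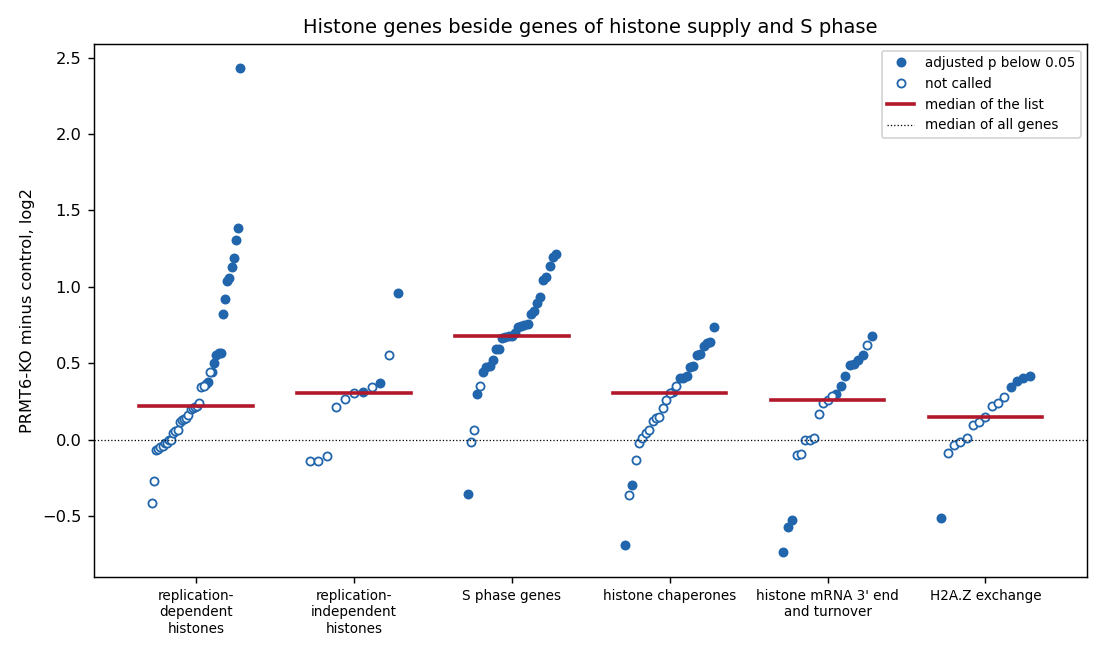
Difference between PRMT6-KO and control (log2, vertical axis) for each gene of both histone classes and of 4 lists of genes that work with histones or in S phase, ordered by value within each list, with filled points at an adjusted p below 0.05, a red bar at the list median and a dotted line at the median of all genes. The S phase median lies at 0.68, above those of the replication-dependent (0.22) and replication-independent histones (0.31). Reference gene scaling lowers the difference of every gene shown by the same 0.25, S phase genes included, and the histone medians become -0.032 and 0.057.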

How the data were processed

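The authors deposited 1 table of log2 intensities, 1 value per probe set and array. Per the submitters' processing notes, RMA was run with affy. Quantile normalization in RMA removes changes of total RNA, so differences are relative to other transcripts. Probe sets were named from the platform annotation, with symbols updated through Entrez numbers to RefSeq (GRCh38.p14): 41091 had 1 gene symbol and were used, 41037 of them matched. Each gene was read by its brightest such probe set; 4 histone pseudogene or antisense genes were left out. The comparison used lmFit and eBayes of limma 3.58.1 (R 4.3.3) on the 4 arrays with no covariates and 2 residual degrees of freedom, adjusted by Benjamini and Hochberg over all 19775 genes, and the fit was tested on simulated data. For arrays, their number limits the precision.

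The members and lists were chosen with earlier results of these data known. Named genes were PRMT6, each replication-independent histone, the 10 replication-dependent histones with the largest called rise, the 5 brightest, and up to 6 called genes per list; others are named in small counts, as a chosen pair or by family after their values were seen. Alternatives were other probe set rules, only brighter genes, an intensity trend, 2 normalizations, each array left out and a replicate block.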

Additional observations from a re-analysis of the deposited data

How the results depend on the processing

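With 1 array left out (a lone PRMT6-KO or control array is then assumed to vary like the other group), the PRMT6 difference ran from -0.44 to -0.28, genes called from 534 to 2624, histone genes called higher from 4 to 12 and lower from 0 to 0. Replication-dependent histones called ran from 4 to 10 and replication-independent ones from 0 to 2, with medians of 0.20 to 0.29 and of 0.25 to 0.32. Genes called higher ran from 1 to 22 in the S phase list, from 0 to 7 among chaperones, from 0 to 2 among 3′ end and turnover genes, from 0 to 1 among H2A.Z exchange genes and from 0 to 0 among histones outside the symbol rule. With gene-specific probe sets, which 40 of the 53 members have, PRMT6 kept -0.36 but not its call (limma adjusted p = 0.0572). Then 10 histone genes rose, 8 of them replication-dependent, beside 9.61% of the 16782 genes tested. The medians were 0.15 over 32 replication-dependent genes and -0.031 over 8 replication-independent genes. Rises numbered 5 of 16 among 3′ end genes, 1 of 8 among H2A.Z exchange genes and 0 of 3 among histones outside the rule. H2AJ became -0.008 and MACROH2A1 -0.054 there, neither called. With only brighter genes, 10 of 10 replication-dependent (median 0.98) and 7 of 8 replication-independent histones were called higher, beside 30.3% of all genes tested. With the intensity trend 7 replication-independent ones were, beside 15.7% of all genes. Reference gene scaling, on 10 of the 12 genes listed, called 8513 genes, with rises making up 14.5% of calls against 51.9% on the deposited scale. Histone genes then rose in 10 and fell in 5 cases, and the medians were -0.032 and 0.057. Rises in the 3′ end, chaperone and H2A.Z lists were 2, 4 and 0, and 6.24% of all genes rose. Relative to the median of all genes the class medians stayed at 0.22 and 0.31 under it, by construction. With the mean of probe sets the replication-independent median was 0.21. Quantile normalization again gave PRMT6 -0.36 (adjusted p = 0.0526) and that median 0.28. With the replicate block PRMT6 was -0.36 (limma adjusted p = 0.0762), and 17 histone genes rose, beside 10.3% of all genes. MACROH2A1 and H3-3A were not called there (adjusted p = 0.0755 and 0.0558), MACROH2A2 was (adjusted p = 0.0455), and H2A.Z exchange rises were 2. Same-numbered arrays deviated with a correlation of 0.05 over genes, and the numbers are not known to pair the arrays. Causes were not tested. Detection calls were not used here, so what signal over background allows for the 35 members below the median gene is not known.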
